A study of Mus musculus with 6 samples.

Results

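Fucosyl-, galactosyl- and sialyltransferases are Golgi enzymes that add fucose, galactose, N-acetylated hexosamines and sialic acid to the ends of glycans on proteins and lipids. Members of these families were found by their gene symbols, as probe sets with a single symbol of the Fut, B3galt, B4galt, B3galnt, B4galnt, B3gnt, St3gal, St6gal, St6galnac or St8sia families on the array. There were 53 such genes of 18193 genes measured, with 114 of 45037 probe sets, and each gene was represented by its probe set of highest mean over the 6 arrays. They comprise 8 fucosyltransferases, 25 genes of the B3 and B4 families, which transfer galactose, N-acetylgalactosamine or N-acetylglucosamine, and 20 sialyltransferases.

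RNA was taken from E14 TG2a cells, an Hprt-deficient mouse ES cell line grown without feeder cells on gelatin, in Knockout DMEM with foetal calf serum according to the study's methods, where the sample labels name serum or serum replacement. Undifferentiated samples (n = 3) were cells kept in leukaemia inhibitory factor (LIF) at 1000 units/ml and sorted by FACS as negative for the cell surface glycoprotein 5T4. Differentiating samples (n = 3) were cells grown for 3 days in medium without LIF and sorted as 5T4-positive. LIF withdrawal and the sort change together between the groups and cannot be told apart, and all samples come from 1 cell line, so nothing in the design shows how another line would behave. The sources used here do not say that replicates were separate cultures, so p-values measure the spread between these samples, which may be technical. Values are log2 RMA values, in which the authors corrected array signals for background, normalized them across arrays and combined the probes of each set. Log2 fold changes are differentiating minus undifferentiated, a gene passed at an adjusted p under 0.1 in limma (Benjamini-Hochberg over all 45037 probe sets), and the methods of the study also ask for a log2 fold change of at least 1. In bulk samples, fewer cells of a type and less RNA per cell cannot be told apart.

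The sugars these enzymes add are handed over in an order. N-acetylglucosaminyl- and galactosyltransferases build the N-acetyllactosamine chain, and fucosyl- and sialyltransferases then cap it. The Lewis x epitope, known on mouse ES cells as SSEA-1, is such a cap, made when an α1,3-fucosyltransferase such as Fut9 or Fut4 adds fucose to N-acetyllactosamine. Sialic acid can be added in α2,3, α2,6 or α2,8 linkage, and long α2,8 chains form polysialic acid on the neural cell adhesion molecule NCAM. Other members begin or extend the glycolipids of the ganglio, globo and lacto series, which change as pluripotent cells differentiate.

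The arrays were not equally alike. Between pairs of undifferentiated arrays the correlation over all probe sets was from 0.974 to 0.991, and undifferentiated replicate 2 correlated at 0.984 to 0.986 with the differentiating arrays, above its 0.974 with undifferentiated replicate 1. The lowest array weights in limma were those of differentiating replicate 1 (0.298) and undifferentiated replicate 1 (0.346), against 1.10 to 5.11 for the other arrays. The ES cell genes Pou5f1 and Sox2 lay at 11.01 or above on every array, while Esrrb went from 9.99 or above in undifferentiated to 5.45 in differentiating replicate 3 (log2 fold change -3.55, not passing, adjusted p = 0.123 from limma). The summed signal of 8 ES cell genes was 43185 to 54427 in undifferentiated and 24425 to 32649 in differentiating arrays, 2 of 8 (Pou5f1 and Sox2) passed as lower and none as higher. Of these 8 genes, 7 lay lower on each differentiating array without overlap, where 12.8% of all genes did. Of 5 primed epiblast genes 2 passed as higher (Fgf5 and Zic2), with a summed signal of 3281 to 5121 against 7162 to 10841. All 5 lay higher on each differentiating array, where 10.7% of all genes did. The summed signal of 12 endoderm genes also did not overlap (1887 to 4310 undifferentiated, 4458 to 5427 differentiating), with none passing and 11 of 12 log2 fold changes above 0. The largest were those of Dab2 (1.96, without overlap, adjusted p = 0.141) and Cubn (1.89, adjusted p = 0.305), while Gata4 lay at 4.64 to 4.94 and Sox17 at 5.19 to 5.47 over all 6 arrays. The median over the 12 was 0.13. Most of each sum is the signal of Sparc, whose own groups overlapped (10.43 to 11.85 undifferentiated, 11.77 to 12.20 differentiating). Of 9 trophectoderm genes 1 was lower, Tfap2c (log2 fold change -2.84, adjusted p = 0.0818 from limma), with a summed signal of 1922 to 13489 undifferentiated and 6043 to 11983 differentiating. Krt8 and Krt18 had log2 fold changes of 1.49 and 1.57 without passing. Krt8 reached 12.54 in undifferentiated replicate 2, against 8.33 and 9.64 in the others of its group. Of 6 neuroectoderm genes 1 was lower, Neurod1 (-1.35, adjusted p = 0.0693 from limma), with sums of 689 to 879 against 725 to 904. Nes was higher on each differentiating array without passing (1.18, adjusted p = 0.153). None of 9 fibroblast (407 to 798 against 565 to 1160), 6 mesoderm (280 to 293 against 274 to 320) or 7 blood and endothelial genes (373 to 699 against 175 to 443) passed. Of the 9 fibroblast genes 4 (Postn, Pdgfra, Dcn and Lum) lay higher on each differentiating array, where 10.7% of all genes did. The part of any such cells in the results that follow was not tested.

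Of the 53 transferase genes, 2 rose, 1 fell and 50 did not pass. St6gal1 and St8sia2, which encode sialyltransferases, were higher in differentiating cells, and B4galnt4, which encodes an N-acetylgalactosaminyltransferase, was lower. This is 3.77% of the members higher and 1.89% lower, where 0.797% and 1.45% of all 18193 genes passed. Over all genes 145 were higher and 264 lower, and 93 and 311 once the arrays were centred on their medians, which moved the median log2 fold change of all genes by under 0.1. St6gal1 alone also reached the log2 fold change of 1 asked by the methods (0.511% of all genes did so in the higher and 0.879% in the lower direction). The median log2 fold change was 0.06 over the members and 0.02 over all genes. Between the groups, the 3 arrays of one lay entirely above the 3 of the other for 9 members in the higher direction (17.0% of members, 10.7% of all genes) and for 6 in the lower direction (11.3% of members, 12.8% of all genes). At each gene's probe set of highest mean, the 95% interval of the log2 fold change lay within -1 and 1 for 41 members. There a change of more than 2-fold lies outside the interval, but other probe sets can differ. St8sia2 is among the 41 (0.36 to 0.97), and its other probe set gave 1.79 (interval 0.93 to 2.66). When differentiating replicate 2, differentiating replicate 3 or undifferentiated replicate 3 was left out, no member passed in limma, and over all genes 0, 3 and 1 passed. In these fits 8, 6 and 7 members, in that order, had an unadjusted p under 0.05 in limma, a count not taken over all genes there. With all 6 arrays it was 12 of 53 members and 3129 of 18193 genes. Without undifferentiated replicate 1 only St6gal1 passed, and without both replicate 1 arrays 9 members did (6 higher and 3 lower), in a fit where 942 of all genes passed in the higher and 935 in the lower direction.

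**Figure D1:**
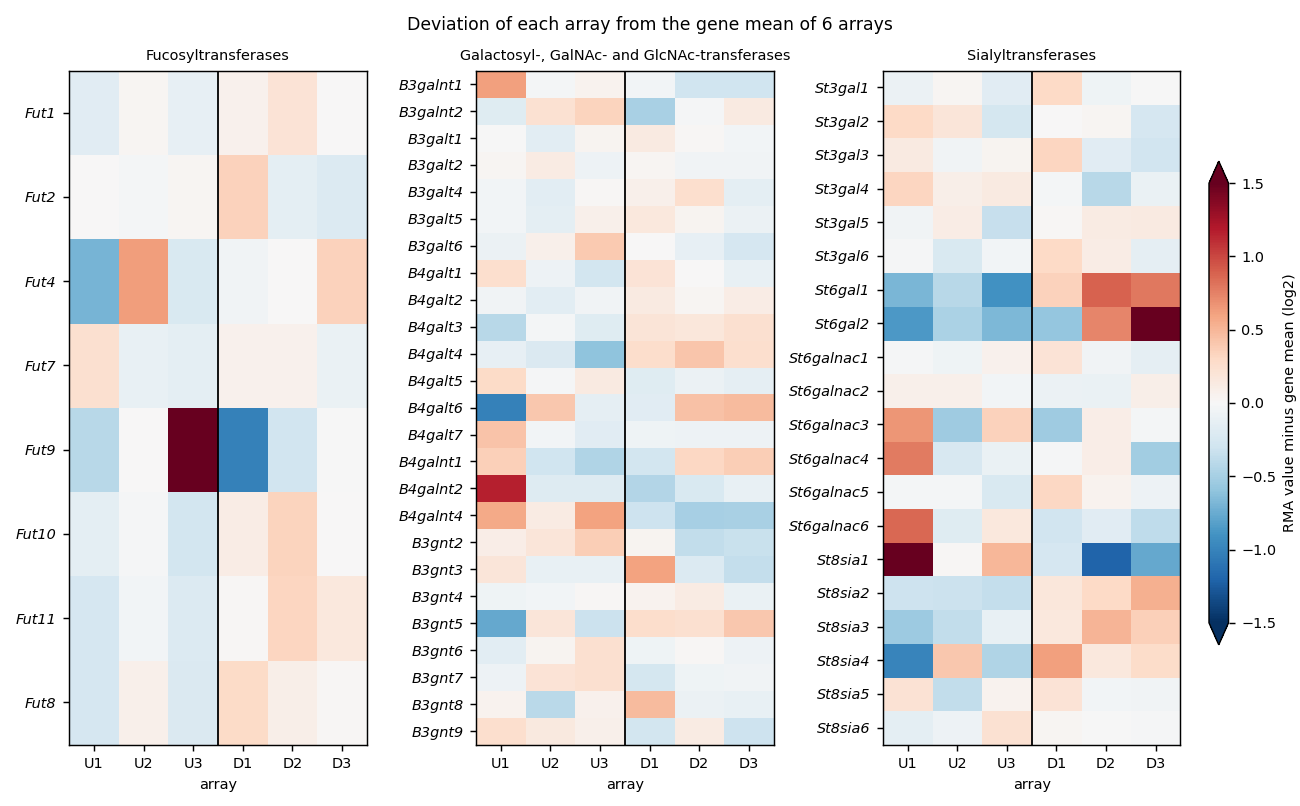
Deviation of each array's RMA value (log2, colour) from the mean of 6 arrays, for each of the 53 genes (rows) on undifferentiated arrays 1 to 3 (U1 to U3) and differentiating arrays 1 to 3 (D1 to D3); the colour scale ends at -1.5 and 1.5, and larger deviations take the end colours. Most rows are pale. St6gal1 and St8sia2 lie above their means in all 3 differentiating arrays and B4galnt4 and St8sia1 below, in some of these cells only faintly. Fut9 in U3, St8sia1 in U1 and St6gal2 in D3 go past the end of the scale.

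**Figure D2:**
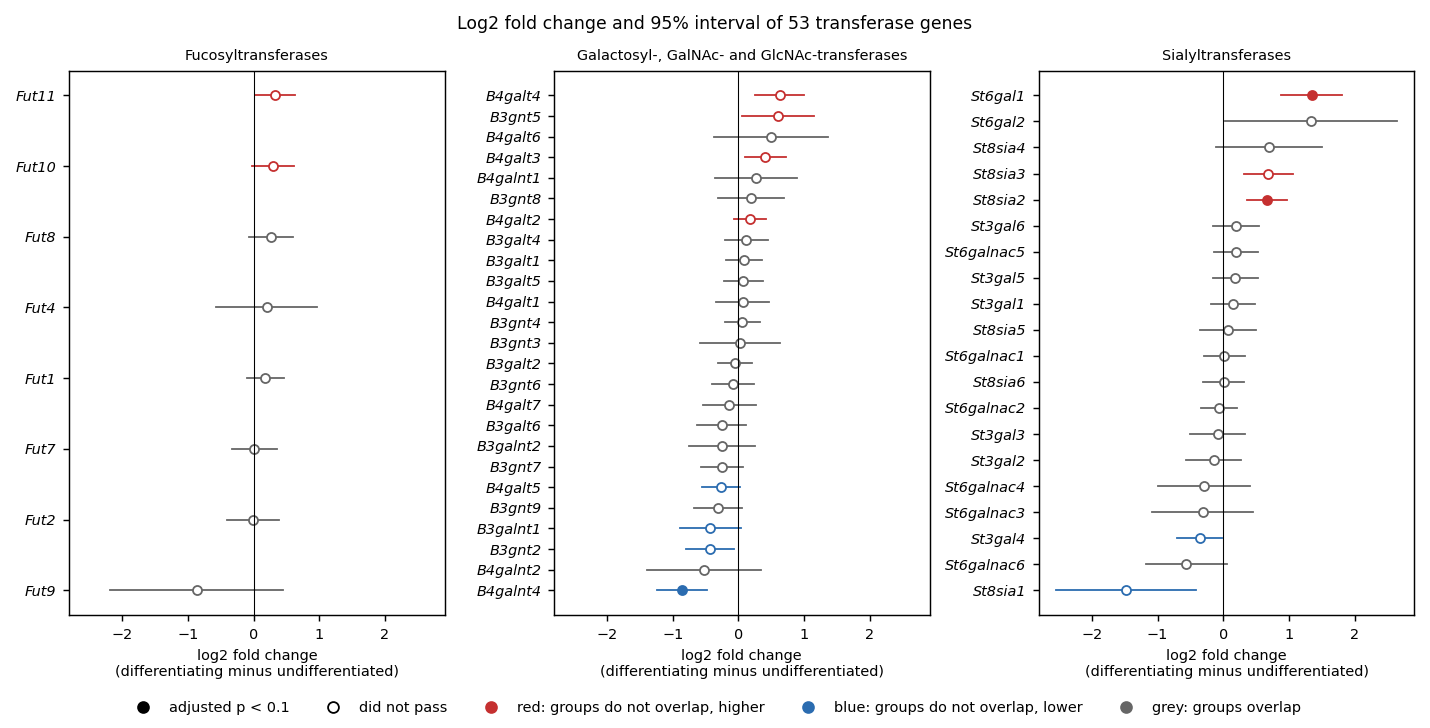
Differentiating minus undifferentiated cells, as log2 fold change (horizontal axis), with its 95% interval from limma for each of the 53 genes in 3 families, ordered by size; filled points passed at an adjusted p under 0.1, and red and blue mark genes whose groups of arrays do not overlap. St6gal1 (1.34), St8sia2 (0.66) and B4galnt4 (-0.86) are filled, and the widest intervals are those of Fut9, St6gal2 and St8sia1.

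The 250 bases before the transcription start are shown for the 3 genes that passed and for St8sia1, the member with the largest decrease in mean, since these are the genes on which the results turn. They are the reference sequences of RefSeq (GRCm38.p6), 5′ to 3′ on the strand of the gene, and the array values themselves name no genome build. Capitals mark each GC box (GGGCGG on either strand), and the same windows were searched for the STAT element TTCNNNGAA on either strand, because LIF acts through STAT3. St6gal1 has 3 starts in the table, of which the one of lowest coordinate is shown, and the array does not tell which start is used.
St6gal1, GRCm38.p6, chr16:23224490-23224739, plus strand: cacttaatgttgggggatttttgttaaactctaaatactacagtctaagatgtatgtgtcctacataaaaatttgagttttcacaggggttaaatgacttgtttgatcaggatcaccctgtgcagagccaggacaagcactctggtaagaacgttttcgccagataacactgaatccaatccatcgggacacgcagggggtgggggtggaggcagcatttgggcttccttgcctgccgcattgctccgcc
St8sia2, GRCm38.p6, chr7:74013683-74013932, minus strand: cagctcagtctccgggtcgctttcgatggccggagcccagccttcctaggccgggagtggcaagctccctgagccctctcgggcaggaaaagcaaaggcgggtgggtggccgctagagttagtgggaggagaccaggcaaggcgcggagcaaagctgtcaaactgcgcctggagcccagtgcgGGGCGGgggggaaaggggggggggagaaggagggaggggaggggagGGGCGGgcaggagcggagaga
B4galnt4, GRCm38.p6, chr7:141060728-141060977, plus strand: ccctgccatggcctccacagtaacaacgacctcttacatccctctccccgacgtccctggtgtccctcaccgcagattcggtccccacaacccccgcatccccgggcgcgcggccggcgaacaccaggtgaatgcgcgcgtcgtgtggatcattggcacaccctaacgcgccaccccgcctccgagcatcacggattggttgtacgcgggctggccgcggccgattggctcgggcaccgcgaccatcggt
St8sia1, GRCm38.p6, chr6:142964453-142964702, minus strand: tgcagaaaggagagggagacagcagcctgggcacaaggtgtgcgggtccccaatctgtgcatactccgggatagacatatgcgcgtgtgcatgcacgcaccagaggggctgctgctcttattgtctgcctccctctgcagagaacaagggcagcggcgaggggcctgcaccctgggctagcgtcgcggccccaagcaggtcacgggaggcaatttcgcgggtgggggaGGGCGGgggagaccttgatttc
The STAT element was found in none of the 4 windows shown, nor at the other St6gal1 starts, and in 7.02% of 32851 promoter windows of this length. GC boxes were found 2 times before St8sia2, 1 time before St8sia1 and not before B4galnt4 or any St6gal1 start, where 32.7% of all windows hold one. Of the 53 genes 38 had an entry, with 48 windows in all, of which 27 (56.2%) held a GC box and 2 (4.17%) a STAT element. TATAAA, on either strand, stood in none of the 48 and in 12.4% of all windows, and CACGTG in 4 (8.33%) and 6.02%. The windows differed in composition, with a GC content of 47.2% before St6gal1, 68.8% before St8sia2, 67.6% before B4galnt4 and 63.6% before St8sia1, where the median was 60.2% over the members' windows and 52.4% over all. These counts describe letters only.

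Among enzymes that add α2,6-linked sialic acid, St6gal1 was the one of 8 measured genes that passed. St6gal1 encodes the main enzyme that sialylates N-acetyllactosamine of N-glycans in α2,6 linkage. Its RMA values were 7.75, 8.02 and 7.53 in undifferentiated replicates 1 to 3 and 8.78, 9.32 and 9.23 in differentiating replicates 1 to 3. Every differentiating array lay above every undifferentiated array. The means were 7.77 ± 0.24 (SD, n = 3) and 9.11 ± 0.29 (SD, n = 3), a 2.54-fold rise with a log2 fold change of 1.34 ± 0.19 (standard error) and an adjusted p of 0.0583 in limma. A second probe set of St6gal1 gave 6.13 to 6.55 and 6.93 to 7.03, again without overlap, but a smaller difference (0.64) that did not pass (adjusted p = 0.119). The St6gal1 call was lost without differentiating replicate 2 (adjusted p = 0.294 from limma), differentiating replicate 3 (0.257) or undifferentiated replicate 3 (0.229), with log2 fold changes of 1.24, 1.28 and 1.22. St6gal2, which encodes the other enzyme of this linkage on N-acetyllactosamine, had the same log2 fold change of 1.34 but a 95% interval from 0.03 to 2.65 and did not pass (adjusted p = 0.353). It was 3.44, 3.82 and 3.62 in undifferentiated and 3.71, 5.03 and 6.16 in differentiating replicates 1 to 3. Differentiating replicate 1 thus lay among the undifferentiated arrays and replicate 3 far above them. Without differentiating replicate 1 the gene passed (1.97, adjusted p = 0.0905 from limma), in a fit where 276 of all genes were higher and 291 lower. Over all fits without 1 array, its log2 fold change ran from 0.75 to 1.97 and its adjusted p in limma from 0.0905 to 0.617. In mean signal the St6gal2 probe set ranks at percentile 28.5, and with no detection calls in the table its low values cannot be told from background. The St6galnac genes encode enzymes that sialylate the N-acetylgalactosamine of O-glycans and, for some members, of gangliosides. None of the 6 passed, and their log2 fold changes ran from -0.56 (St6galnac6, 7.10 to 7.31 differentiating, 7.30 to 8.35 undifferentiated) to 0.19 (St6galnac5). St6galnac3, St6galnac4 and St6galnac6 had their highest value in undifferentiated replicate 1 (6.45, 6.74 and 8.35).

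The 6 α2,8-sialyltransferase genes had log2 fold changes from -1.48 to 0.69, and 1 of them passed. St8sia2 and St8sia4 encode the enzymes that make polysialic acid, and St8sia2 is the form known from early development. St8sia2 was 5.92, 5.91 and 5.88 in undifferentiated and 6.40, 6.53 and 6.77 in differentiating replicates 1 to 3. The undifferentiated arrays were nearly equal, and all differentiating arrays lay above them. The rise was 1.58-fold, with a log2 fold change of 0.66 ± 0.13 (standard error) and an adjusted p of 0.095 in limma. The dimmer St8sia2 probe set had means of 4.81 ± 0.21 (SD, n = 3) and 6.60 ± 0.78 (SD, n = 3), a difference of 1.79 that narrowly missed the threshold (adjusted p = 0.105), with 5.71 in differentiating replicate 1 against 7.01 and 7.09. The mean over both probe sets passed at a log2 fold change of 1.23 (adjusted p = 0.0655 from limma). The St8sia2 call at the brighter probe set did not hold without differentiating replicate 2 (adjusted p = 0.366 from limma), differentiating replicate 3 (0.312), or undifferentiated replicates 1 (0.122), 2 (0.126) or 3 (0.346), nor once the arrays were centred on their medians (0.121), and its log2 fold change stayed between 0.56 and 0.75. The St8sia4 means differed by 0.69, with an interval from -0.11 to 1.50 (adjusted p = 0.443). It was 3.72, 5.12 and 4.26 in undifferentiated and 5.32, 4.87 and 4.99 in differentiating replicates 1 to 3. Undifferentiated replicate 2 lay within the differentiating range and the others of its group below it.

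St8sia1 encodes GD3 synthase, which starts the b series of gangliosides. It was 7.44, 5.74 and 6.23 in undifferentiated and 5.48, 4.52 and 4.96 in differentiating replicates 1 to 3. The groups did not overlap, but undifferentiated replicate 2 lay close to differentiating replicate 1, and undifferentiated replicate 1 stood well above the rest. The log2 fold change of -1.48 (standard error 0.45, 95% interval -2.55 to -0.42) was the lowest of the 53 members and did not pass (adjusted p = 0.219 from limma). The other probe sets gave -1.37 (adjusted p = 0.144) and -1.11 (adjusted p = 0.142), also without passing. St8sia1 passed without both replicate 1 arrays (-1.25, adjusted p = 0.0511 from limma), but not without undifferentiated replicate 1 alone (adjusted p = 0.202). St8sia3, named after its values were seen, encodes an enzyme of brain glycoproteins and gangliosides. Its values were 5.65, 5.82 and 6.07 in undifferentiated and 6.35, 6.70 and 6.55 in differentiating replicates 1 to 3, with a difference of 0.69 between means (interval 0.32 to 1.05), which did not pass (adjusted p = 0.128). St8sia3 passed without both replicate 1 arrays (adjusted p = 0.0648 from limma). That fit, given for St8sia1 as well, was chosen after the data were seen, and 942 of all genes were higher in it and 935 lower. St8sia5 and St8sia6 had log2 fold changes of 0.07 and 0.00.

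**Figure D3:**
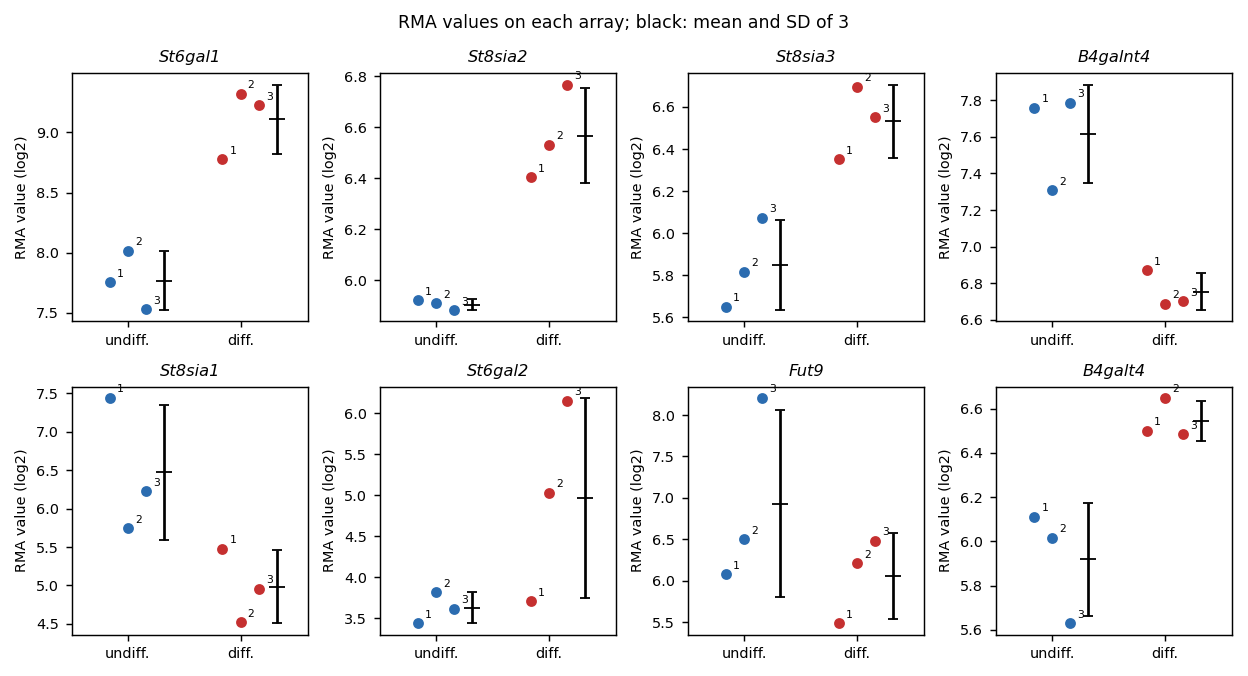
Levels of 8 genes on each array, as log2 RMA values on vertical axes that differ between genes and do not start at 0, with blue for undifferentiated and red for differentiating cells; the numbers beside points name the replicates, and black bars give the mean and SD of 3 arrays. St6gal1, St8sia2, St8sia3, B4galnt4, St8sia1 and B4galt4 separate the groups, whereas differentiating replicate 1 of St6gal2 (3.71) lies among the undifferentiated arrays and undifferentiated replicate 3 of Fut9 (8.21) stands apart from all others.

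None of the 6 α2,3-sialyltransferase genes passed, and their log2 fold changes ran from -0.36 to 0.19. St3gal5 encodes GM3 synthase, the first step from lactosylceramide to most gangliosides. It was 8.02, 8.18 and 7.72 in undifferentiated and 8.08, 8.19 and 8.21 in differentiating replicates 1 to 3, with overlapping groups and means that differed by 0.19 (95% interval -0.16 to 0.53, adjusted p = 0.635). At the probe sets of highest mean, St3gal4, which acts on N-acetyllactosamine, was the one α2,3 member whose groups did not overlap, at 5.00 to 5.25 undifferentiated and 4.50 to 4.89 differentiating (log2 fold change -0.36, adjusted p = 0.343). At these probe sets the intervals of St3gal1, St3gal2, St3gal3 and St3gal6 all included 0. The 3 probe sets of St3gal2 differed in sign (-0.14, 0.13 and -0.39), and at that of 0.13 the groups did not overlap. The 5 probe sets of St3gal6 disagreed, with log2 fold changes from -0.05 to 0.85, and the highest of these belonged to a dim probe set (percentile 26.7).

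No fucosyltransferase passed among 8 measured. Fut9, which encodes the α1,3-fucosyltransferase that makes the Lewis x epitope in mouse ES cells, was 6.08, 6.50 and 8.21 in undifferentiated and 5.48, 6.21 and 6.49 in differentiating replicates 1 to 3. Undifferentiated replicate 3 stood far above each other array, while the remaining arrays of the groups overlapped. Its SD in undifferentiated cells (1.13) was the largest of the 53 members in that group. The log2 fold change was -0.87 (95% interval -2.18 to 0.44, adjusted p = 0.559 from limma), and -0.23 without undifferentiated replicate 3. The other Fut9 probe sets gave -0.88 (adjusted p = 0.474) and -1.08 (adjusted p = 0.27). At the last of these both undifferentiated replicates 1 and 3 were high (6.19 and 6.21) and replicate 2 (4.91) lay among the differentiating arrays (4.38 to 5.05). Fut4, which encodes another α1,3-fucosyltransferase of the Lewis x epitope, was 4.24, 5.57 and 4.71 in undifferentiated and 4.89, 4.94 and 5.28 in differentiating replicates 1 to 3. The differentiating values fell inside the undifferentiated range (log2 fold change 0.20, interval -0.57 to 0.97, adjusted p = 0.839), and the sign turned without undifferentiated replicate 1 (-0.10). For Fut9 and Fut4 the intervals therefore span changes of nearly 2-fold or more, and no difference was detectable with 3 arrays per group.

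Fut8 encodes the enzyme that adds core fucose to N-glycans. It was 8.61, 8.94 and 8.65 in undifferentiated and 9.16, 8.96 and 8.88 in differentiating replicates 1 to 3, with 1 undifferentiated array within the differentiating range (log2 fold change 0.27, interval -0.07 to 0.60, adjusted p = 0.478). Fut10 and Fut11, the remaining members and less studied, were higher on each differentiating array, with log2 fold changes of 0.30 (adjusted p = 0.398) and 0.33 (adjusted p = 0.326), neither of which passed. Fut11 was separated at all 3 of its probe sets, and one of them, at 5.58 to 5.90 undifferentiated and 6.30 to 6.50 differentiating, came close to the threshold (0.62, adjusted p = 0.111). The 3 Fut10 probe sets differed in sign (-0.40 to 0.30). Fut1 and Fut2, which make the H antigen, and Fut7, which makes sialyl Lewis x, had log2 fold changes of 0.18, -0.01 and 0.01.

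Galactosyltransferases that build N-acetyllactosamine showed small differences. None of 7 measured B4galt genes passed, and their log2 fold changes ran from -0.27 to 0.63. B4galt1, which encodes the main galactosyltransferase of N-glycans, was 8.81, 8.49 and 8.28 in undifferentiated and 8.76, 8.56 and 8.45 in differentiating replicates 1 to 3, and the means differed by 0.06 (interval -0.34 to 0.46, adjusted p = 0.909). The related genes B4galt2, B4galt3 and B4galt4, whose products also make N-acetyllactosamine, had every differentiating array above every undifferentiated one at their probe sets of highest mean. These are 3 of the 7 B4galt genes, where 10.7% of all genes did so. B4galt4, named after its values were seen, was 6.11, 6.02 and 5.63 in undifferentiated and 6.50, 6.65 and 6.48 in differentiating replicates 1 to 3 (log2 fold change 0.63, interval 0.26 to 0.99, adjusted p = 0.151). B4galt3 was 8.40 to 8.79 and 8.98 to 9.06 (0.41, adjusted p = 0.242) and B4galt2 6.22 to 6.33 and 6.40 to 6.51 (0.18, adjusted p = 0.534). A second B4galt2 probe set of similar brightness was also without overlap and gave a larger difference (0.53, adjusted p = 0.183). The second B4galt3 probe set, very dim (percentile 2.3), gave -0.03 with overlapping groups. Of the genes of lactosylceramide synthases, B4galt5 lay lower on each differentiating array (-0.27, adjusted p = 0.396), and B4galt6 varied widely in undifferentiated cells (8.59, 10.00 and 9.47) with means 0.49 apart (adjusted p = 0.618). B4galt7, which acts in the linker of glycosaminoglycans, had one of -0.14.

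B4galnt4, which encodes an enzyme that makes the LacdiNAc unit by adding N-acetylgalactosamine in place of galactose, was the member that fell. It was 7.76, 7.31 and 7.79 in undifferentiated and 6.87, 6.69 and 6.70 in differentiating replicates 1 to 3. The groups did not overlap, and undifferentiated replicate 2 was the nearest to the differentiating arrays. The decrease was 1.82-fold, with a log2 fold change of -0.86 ± 0.16 (standard error), a 95% interval from -1.24 to -0.48 and an adjusted p of 0.0897 in limma, and the gene has 1 probe set. The call of B4galnt4 was lost without differentiating replicates 1 (adjusted p = 0.107 from limma), 2 (0.367) or 3 (0.321) and without undifferentiated replicates 1 (0.121) or 3 (0.338), at log2 fold changes from -0.92 to -0.78, and when the arrays were quantile normalized again (-0.82, adjusted p = 0.108). B4galnt1 encodes GM2/GD2 synthase, the next step of ganglioside synthesis after GM3 and GD3. It was 6.06, 5.41 and 5.25 in undifferentiated and 5.43, 6.01 and 6.08 in differentiating replicates 1 to 3, so that at this probe set replicate 1 of each group lay on the side of the other group. At the other B4galnt1 probe set the groups did not overlap (5.08 to 5.65 undifferentiated, 5.68 to 5.78 differentiating), with a log2 fold change of 0.31 (adjusted p = 0.509). At the first it was 0.26 (interval -0.36 to 0.89, adjusted p = 0.72), and 0.71 without both replicate 1 arrays (adjusted p = 0.0418 from limma). Those are the arrays that lay on the side of the other group, so leaving them out had to widen the difference. That fit was chosen after the data were seen, and 942 of all genes were higher in it and 935 lower. B4galnt2, which makes the Sda antigen, had -0.52 with 1 high undifferentiated array (6.70, against 5.33 and 5.34).

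Among the β1,3 families no gene passed. B3galt5, which encodes an enzyme of type 1 chains and of globo-series glycolipids, was 5.96, 5.85 and 6.08 in undifferentiated and 6.16, 6.04 and 5.91 in differentiating replicates 1 to 3, and the means differed by 0.08 (interval -0.22 to 0.37, adjusted p = 0.841). B3galnt1, whose product makes globoside, was lower on each differentiating array (6.35 to 6.61, against 6.62 to 7.27), without passing (-0.43, adjusted p = 0.403). The other B3galt genes and B3galnt2 lay between -0.25 and 0.12, and B3galt2 was at 2.90 to 3.09 on all arrays, near the bottom of the table. B3gnt genes encode enzymes that add N-acetylglucosamine to extend chains. B3gnt5, which starts lacto-series glycolipids and was named after its values were seen, was 8.93, 9.87 and 9.37 in undifferentiated and 9.95, 9.93 and 10.10 in differentiating replicates 1 to 3. Undifferentiated replicate 2 lay just below the lowest differentiating array (log2 fold change 0.60, adjusted p = 0.326). Without that undifferentiated array B3gnt5 passed (0.84, adjusted p = 0.0964 from limma), in a fit where 430 of all genes were higher and 421 lower. At its other probe set the groups overlapped (0.31, adjusted p = 0.79). B3gnt2, the main enzyme of poly-N-acetyllactosamine, was 9.06, 9.15 and 9.33 in undifferentiated and 9.01, 8.60 and 8.64 in differentiating replicates 1 to 3 (log2 fold change -0.43, interval -0.79 to -0.07, adjusted p = 0.277). It passed without both replicate 1 arrays (-0.62, adjusted p = 0.0579 from limma), in a fit chosen after the data were seen where 942 of all genes were higher and 935 lower. The other B3gnt2 probe set gave -0.38 with overlapping groups (adjusted p = 0.50). The remaining 6 B3gnt genes had log2 fold changes from -0.31 to 0.19.

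Of the 53 genes 36 had several probe sets. In 24 of these all log2 fold changes had the same sign, and in 12 the signs differed, mostly around small values. Of 114 probe sets, 2 passed in the higher and 1 in the lower direction, where 0.573% and 1.03% of all 45037 did, and no member passed only at a probe set other than its brightest. The spread between replicates was close to that of all genes, with a median SD of 0.16 in differentiating and 0.20 in undifferentiated cells for the members and 0.18 in both groups for all genes. Undifferentiated replicate 1 held the highest or the lowest of the 6 values for 26 of the 53 members, and undifferentiated replicate 2 for 9. The mean of 17 members lay below the median of all probe sets and for 2 of these (B3galt2 and B3gnt9) it lay far down the range of signals, where a fold can understate a change.

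**Figure D4:**
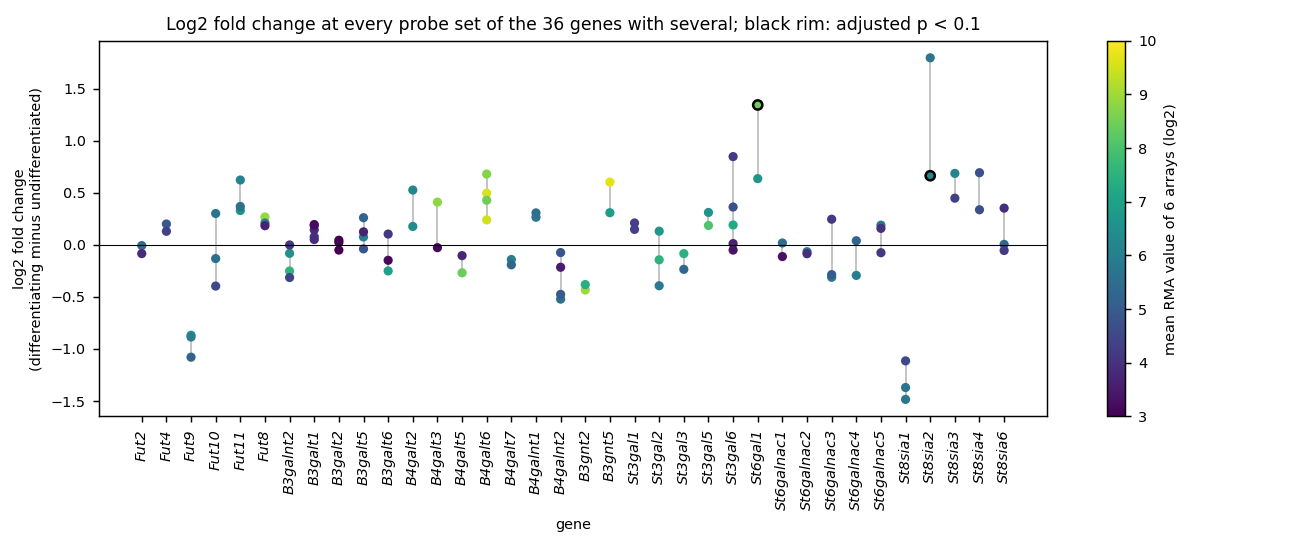
Log2 fold change (differentiating minus undifferentiated, vertical axis) at every probe set of the 36 genes with several, with the mean RMA value of the 6 arrays (log2) as colour; a black rim marks an adjusted p under 0.1. The 3 probe sets of St8sia1 (-1.48 to -1.11) and the 3 of Fut9 (-1.08 to -0.87) lie together below 0, while those of St8sia2 lie at 0.66 and 1.79.

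Other genes act before or after the transferases, by supplying the sugars, building the cores or removing the caps. Of 73 measured genes in 10 lists, none was higher and 2 were lower, Rfng and Glb1, where 0.797% and 1.45% of all genes passed, and the median log2 fold change was 0.00. Every differentiating array lay above the undifferentiated ones for 4 of the 73 and below them for 12, where the shares of all genes were 10.7% and 12.8%. Rfng encodes a Fringe enzyme that extends O-fucose on Notch receptors. It was 8.03, 7.88 and 8.17 in undifferentiated and 7.36, 7.25 and 7.36 in differentiating replicates 1 to 3, 1.63-fold lower (log2 fold change -0.71, adjusted p = 0.0806 from limma). Glb1, which encodes the lysosomal β-galactosidase, was 8.76, 8.16 and 8.81 in undifferentiated and 7.57, 7.69 and 7.49 in differentiating replicates 1 to 3, 1.99-fold lower (log2 fold change -0.99, adjusted p = 0.0949 from limma). In both genes all differentiating arrays lay below all undifferentiated ones. Neither passed without differentiating replicates 2 (adjusted p = 0.355 and 0.353 from limma) or 3 (0.285 and 0.326) or undifferentiated replicates 1 (0.104 and 0.13) or 3 (0.309 and 0.346), and Glb1 also not without differentiating replicate 1 (0.148).

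Donor synthesis and transport lists had median log2 fold changes of -0.04 for GDP-fucose (6 genes), -0.11 for CMP-sialic acid (5), -0.17 for UDP-galactose (5) and -0.22 for UDP-N-acetylglucosamine (6). No gene of these lists passed. The smallest adjusted p of each list belonged to Gfus, whose product makes GDP-fucose (-0.36, adjusted p = 0.209), Nans, a gene of sialic acid synthesis (-0.38, 0.407), Galt, a gene of galactose use (-0.33, 0.456), and Gnpnat1, a gene of the hexosamine pathway (-0.53, 0.149). At their probe sets of highest mean, none passed either among 14 N-glycan processing genes (median 0.14), 15 genes of O-glycan initiation and cores (0.08), 5 of glycolipid cores (0.09) and 3 of the glycosaminoglycan linker (-0.03). There the smallest adjusted p belonged to Mogs, a gene of N-glycan trimming (0.66, adjusted p = 0.106), Galnt3, which starts O-glycans (1.74, 0.198), Ugt8a, which makes galactosylceramide (0.87, 0.167), and Xylt2, a xylosyltransferase gene (-0.41, 0.483). Gcnt2, of the O-glycan list (-0.61, adjusted p = 0.316 from limma), passed as lower at another of its probe sets. Galnt3 was 6.11, 6.72 and 5.42 in undifferentiated and 6.79, 8.42 and 8.27 in differentiating replicates 1 to 3. Both Galnt3 (2.26, adjusted p = 0.0839 from limma) and Ugt8a (1.12, adjusted p = 0.0438) passed without differentiating replicate 1, where 276 of all genes were higher and 291 lower. Of 6 O-fucose and Fringe genes 1 was lower, and of 8 glycosidase genes 1 was lower, the others not passing (medians 0.03 and 0.08).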

How the data were processed

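RNA of 6 samples of sorted E14 TG2a cells was hybridised to Affymetrix mouse arrays. The authors ran RMA through affy, of a version not stated in the sources used here, which corrects background, normalizes across arrays and combines the probes of a set. The table they deposited gives log2 values in 1 column for each array. They were not transformed again. The table holds 45101 probe sets, of which 64 array controls were left out. Gene symbols came from the platform annotation, where 34945 of 45037 probe sets have 1 symbol, 932 several and 9160 none. A probe set with several symbols, among them one that lists B4galt2, was tested but given to no gene. Samples were grouped by their titles.

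A model of 2 groups was fitted to all probe sets in R 4.3.3 by limma 3.58.1 (lmFit, then eBayes, no replicate block, prior degrees of freedom 2.93), with Benjamini-Hochberg adjustment, intervals of 95%, and a threshold of 0.1 as in the methods. The steps were tested on simulated data. The number of arrays limits the precision, and no depth applies. The members, the lists and the rule for named genes were chosen with earlier results of these data known. Values on each array are given for members that passed, that passed at another probe set, or whose groups did not overlap with a log2 fold change of at least 0.75 in size, and for Fut4, Fut9, B4galt1, Fut8, B3galt5, B4galnt1, St3gal5 and St8sia1 in any case. St6gal2, St8sia4 and B3gnt2 are also given on each array, outside this rule, as are St8sia3, B4galt4 and B3gnt5, which are marked where they appear. Other pathway genes are named if they passed, also at another probe set, or as the one of smallest adjusted p in a list. Summed signals add 2 to the power of the RMA values over a list. Promoter windows were those of the RefSeq table, cut to the 250 bases before the start. Fits were repeated with array weights, with a trended robust variance, with replicate number as a block, on arrays centred on their medians or quantile normalized again, without each array, without dim probe sets, with controls, and with other thresholds and probe set choices. Fits without both replicate 1 or both replicate 2 arrays were chosen after seeing the data.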

Additional observations from a re-analysis of the deposited data

How the results depend on the processing

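Of the 53 transferase genes 3 passed, and the count was also 3 with array controls kept, with dim probe sets left out (36 genes left), with shared probe sets left out and with any probe set of a gene counted. It was 2 after a second quantile normalization (160 of all genes higher and 202 lower) or median centring (93 and 311). With the mean over a gene's probe sets it was 4, where calls over all genes also rose, to 244 higher and 434 lower. It was 1 with a trended robust variance (147 of all genes higher and 247 lower), 14 with array weights (9 higher and 5 lower), 0 at an adjusted p under 0.05, and 1 with the log2 fold change of 1 asked by the methods. Leaving out 1 array gave 0 to 4, and leaving out both replicate 1 or both replicate 2 arrays gave 9 and 0. The 4 came without undifferentiated replicate 2, where 430 of all genes were higher and 421 lower. Over all genes 942 were higher and 935 lower without both replicate 1 arrays, and 0 passed without both replicate 2 arrays. Array weights raised the calls over all genes as well, to 1826 higher and 1760 lower from 145 and 264. For the 73 other glycosylation genes the count of 2 became 0 with the replicate block, with a trended robust variance, at an adjusted p under 0.05 and with the log2 fold change of 1. It became 16 with array weights, 5 with the mean over probe sets and 3 with any probe set of a gene counted (Gcnt2 beside Rfng and Glb1). Leaving out 1 array gave 0 to 3, and leaving out both replicate 1 or both replicate 2 arrays gave 9 and 0.

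Same-numbered arrays did not deviate together in every pair (correlation of deviations from the group means 0.21, -0.11 and 0.11 for replicates 1 to 3, while differentiating replicate 3 correlated at 0.32 with undifferentiated replicate 2). With 3 arrays per group, such correlations cannot decide whether the numbers pair the samples, and the labels do not say. With the replicate number as a block 2 of the 53 genes passed, St6gal1 and St8sia1 (adjusted p = 0.0711 and 0.0712 from limma), where 149 of all genes were higher and 233 lower. The sign turned for Fut4 without undifferentiated replicate 1 (log2 fold change -0.10) and without both replicate 1 arrays (-0.027), and leaving out 1 array gave -0.10 to 0.57. For B4galt1 it turned without differentiating replicate 1 (-0.02) or undifferentiated replicate 3 (-0.060), with neither gene passing in any setting. The 25 other genes followed through these settings kept their direction, but many of them were named for their values. Over all 53 members, 46 kept the sign of the main fit without differentiating replicate 1, and 46 without both replicate 1 arrays. Without undifferentiated replicate 2 it was 48, and without undifferentiated replicate 3 also 48. Low signals in a table without detection calls limit what the dimmer members can show.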
